A study of Mus musculus with 231 samples.

Results

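The mature strands of the miR-155, miR-146a and miR-146b hairpins were followed in peripheral blood mononuclear cells (PBMC) of mice with and without the Cbfb-MYH11 (CM) leukemia fusion gene. They were taken by name, which gave 6 miRNAs, a 5p and a 3p strand for each hairpin (mmu-miR-155-5p, mmu-miR-155-3p, mmu-miR-146a-5p, mmu-miR-146a-3p, mmu-miR-146b-5p and mmu-miR-146b-3p, written without the species prefix from here on). All 6 were listed in the raw training counts, among 1863 mature miRNAs, in the deposited training values, among 1895, and in the deposited validation values, among 1817.

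These miRNAs are known for their part in inflammation. miR-155-5p is switched on in activated lymphocytes and macrophages by NF-κB and AP-1 and represses Socs1 and Inpp5d (SHIP1), inhibitors of cytokine and phosphoinositide signalling. miR-146a-5p, a target of NF-κB, and its relative miR-146b-5p repress Traf6 and Irak1, signalling proteins downstream of Toll-like receptors, which closes a negative feedback loop. Poly(I:C), the agent used to induce CM here, is a synthetic double-stranded RNA that is sensed by Toll-like receptor and RIG-I-like pathways and raises interferon.

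All mice were C57BL/6. CM mice (Cbfb56M/+/Mx1-Cre, genotype label CHW) carry a conditional knock-in whose fusion is switched on by an interferon-responsive Cre, so that cells other than blood cells can recombine too. They were injected with poly(I:C) at 6 to 8 weeks of age, in 7 doses of 14 mg/kg, and Ctrl littermates (genotype labels HW, CW or WT, not explained) received the same course. The labels describe Ctrl mice as free of the transgene, whereas the methods of the study list littermates that carry the allele without Cre. The training cohort comprised 7 CM mice with 53 libraries and 7 Ctrl mice with 76 libraries, drawn at month 0, before poly(I:C), and at months 1 to 10. Its CM mice were 4 females and 3 males. Its Ctrl mice were 1 female and 3 males labelled CW, 2 males labelled HW and 1 female labelled WT. The sexes were thus not balanced between the arms. The validation cohort comprised 10 CM mice with 60 libraries and 6 Ctrl mice with 42 libraries, at points 1 to 7 and L. No group was left uninjected, so poly(I:C), age and repeated bleeding cannot be told apart in changes over time, and neither can the month and the day on which a blood sample was drawn.

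The 6 sequences are shown because the tables have to tell near-identical strands apart. They are RefSeq entries on GRCm38.p6, printed 5′ to 3′, with the seed (bases 2 to 8, which pair with targets) in capitals.
miR-155-5p: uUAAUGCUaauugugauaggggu
miR-155-3p: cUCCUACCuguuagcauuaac
miR-146a-5p: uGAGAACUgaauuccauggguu
miR-146a-3p: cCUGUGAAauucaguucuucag
miR-146b-5p: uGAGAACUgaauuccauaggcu
miR-146b-3p: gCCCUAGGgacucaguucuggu

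miR-146a-5p and miR-146b-5p shared the seed GAGAACU with each other and with no other mature mouse miRNA in the RefSeq table. Counted from the 5′ end of miR-146a-5p, the strands differed by G18A and U21C and were identical at the other 20 of 22 positions. The 3p strands had no seed in common. The Mir155 hairpin lies on chromosome 16 (84714140 to 84714204, plus strand, GRCm38.p6), inside the long non-coding RNA gene Mir155hg, and in the older mm9 annotation it falls within an exon of that transcript. The Mir146 hairpin, which gives miR-146a, lies on chromosome 11 (43374397 to 43374461, minus strand), where no other gene is annotated. The Mir146b hairpin lies on chromosome 19 (46342762 to 46342870, plus strand), inside the span of the long non-coding RNA gene Gm36493, and in the mm9 annotation inside the span of Tmem180, outside its exons.

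Total counts of the training libraries lay between 1792809 and 7958411. The miR-142a strands, which mark leukocytes of all kinds, summed to between 33005 and 194350 CPM (counts scaled to 1000000 per library after TMM, a correction that multiplies each library's total by a factor of its own) in the training libraries and were at 0 in none of them. Erythroid miRNAs (7 names of the miR-451a, miR-144 and miR-486 families) were present in all libraries too, from 13158 to 622569 CPM in sum. In bulk RNA, fewer cells of a type and less RNA per cell cannot be told apart.

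miR-146a-5p was the most abundant member by far. Its level over all training libraries was 35071 ± 14864 CPM (SD), with a median of 32052 CPM, and it ranked 8 by mean among 1863 miRNAs. miR-155-5p stood at 2921 ± 1138 CPM and ranked 54, and miR-146b-5p at 1923 ± 1032 CPM and ranked 67. The strands are of like length, so CPM values were compared without scaling by length. miR-146a-5p exceeded miR-155-5p in all training libraries, at a median ratio of 11.9. The order of the lower pair was less firm: at a median ratio of 1.59, miR-155-5p exceeded miR-146b-5p in all but 14 libraries, or all but 3 with the deposited values.

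The 3p strands were near the floor of detection. miR-146a-3p had a median of 20 counts per library (0 to 85), miR-146b-3p a median of 5 counts (0 to 19) and miR-155-3p a median of 3 counts (0 to 13). Summed over the libraries, 5p counts exceeded 3p counts 7084-fold for miR-146a, 3385-fold for miR-155 and 1561-fold for miR-146b. The 5p strand was thus the dominant product of all 3 hairpins in these cells. miR-155-3p and miR-146b-3p did not pass the filter on low counts in any comparison of single months, where 4 members (3 at month 6) were tested.

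**Figure D1:**
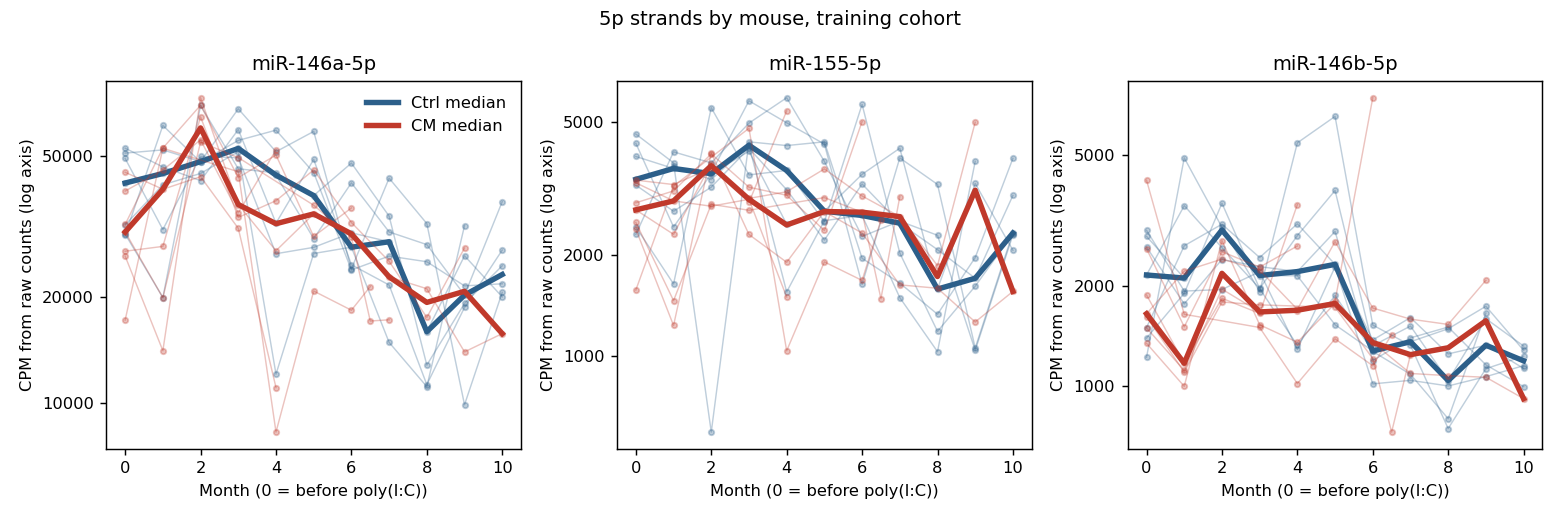
Level of miR-146a-5p, miR-155-5p and miR-146b-5p (CPM from raw counts, log axis) against month in the training cohort. Thin lines with points are single mice (7 CM in red, 7 Ctrl in blue), thick lines are the medians of each arm, and the sample labelled T6p5 is placed at month 6.5. In Ctrl mice the medians of all 3 strands were lower at months 8 to 10 than at months 1 to 3, and the arms overlapped at each month from 0 to 6.

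The first comparison asked whether CM changes these miRNAs within a month of induction. The clearest difference was in miR-146b-5p, which was lower in CM mice at month 1. Its level was 995 to 2222 CPM (median 1169) in the 7 CM mice and 1769 to 4897 CPM (median 2118) in the 7 Ctrl mice. Of the 7 CM libraries, 6 lay below the lowest Ctrl library, and the ranges overlapped through the 1 other. The log2 difference was -0.98 ± 0.27 (SE; edgeR quasi-likelihood test, Benjamini-Hochberg (BH) adjusted p = 0.0161, n = 7 and 7). The highest Ctrl value came from mouse 3342, and without this mouse the difference was -0.74. Leaving out each mouse in turn kept the call in 14 of 14 fits. Of all 472 miRNAs tested at month 1, 12.3% were called lower and 26.7% in either direction, so 1 called member of 4 is close to the background.

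The other members did not pass the test at month 1. miR-146a-5p was at 14044 to 52770 CPM (median 40323) in CM and 19878 to 61200 CPM (median 44698) in Ctrl mice, a log2 difference of -0.26 ± 0.30 (edgeR, adjusted p = 0.562). miR-155-5p was at 1231 to 3248 CPM (median 2902) in CM and 1639 to 4068 CPM (median 3628) in Ctrl mice. All 7 CM libraries were below the Ctrl median, and the log2 difference was -0.36 ± 0.25 (adjusted p = 0.305). Without CM mouse 3336 the differences were -0.10 for miR-146a-5p and -0.20 for miR-155-5p. miR-146a-3p differed by 0.06 ± 0.25 (adjusted p = 0.885).

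The same libraries differed in erythroid miRNAs. All 7 erythroid names were called higher in CM mice at month 1, and their sum was 53405 to 622569 CPM (median 67187) in CM against 28313 to 69678 CPM (median 36921) in Ctrl mice. With these names left out of the library totals and the scaling, the difference in miR-146b-5p was -0.87 (adjusted p = 0.0264, where all 7 planned and added alternatives without omitted mice gave 0.00383 to 0.0344). Both lymphocyte names (miR-150-5p and miR-342-3p) and both myeloid names (miR-223 strands) had values below 0 in this comparison without passing the test, with medians of -0.38 and -0.62. Ctrl mice 3342 and 3346, the highest in miR-146b-5p (4897 and 3509 CPM), had miR-223 sums of 26567 and 24697 CPM. The other Ctrl mice had miR-223 sums of 4998 to 9062 CPM. The part of these cell types in the miR-146b-5p result was not tested.

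Before poly(I:C), at month 0, none of the 4 members tested was called, against 0.209% of 478 miRNAs (edgeR and DESeq2 both called 0 members, and 1 member had an unadjusted p under 0.05). miR-146b-5p was at 1344 to 4192 CPM (median 1651) in CM and 1219 to 2955 CPM (median 2163) in Ctrl mice, with a fitted log2 difference of 0.00 ± 0.28. Its highest CM value, that of mouse 3334, lay above all Ctrl libraries, while 5 of 7 CM libraries were below the Ctrl median. The miR-223 sum of mouse 3334 at month 0 was 39990 CPM, the highest of all training libraries. In the other CM mice it was 5390 to 11028 CPM at month 0. The part of myeloid cells in the miR-146b-5p value of mouse 3334 was not tested. A fit without this mouse was not made at month 0. miR-146a-5p and miR-155-5p were already lower in CM mice on average, at -0.42 ± 0.20 (edgeR, adjusted p = 0.379) and -0.40 ± 0.18 (adjusted p = 0.365). For miR-155-5p, all 7 CM libraries were below the Ctrl median at month 0, as at month 1.

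Whether the arms differed in the change from month 0 to month 1 was tested by the interaction of arm and month. For miR-146b-5p the change was lower in CM by -0.85 ± 0.39, which did not pass (edgeR, adjusted p = 0.150). The block on mouse gave -0.77 (adjusted p = 0.279), and the adjusted p ranged from 0.0863 to 0.279 over 7 alternatives. The month 1 difference in miR-146b-5p is therefore not shown to be a change after induction that differs between the arms. The other members gave 0.26 (miR-146a-5p), 0.14 (miR-155-5p) and 0.29 (miR-146a-3p), with adjusted p of 0.661 or more. The interaction was called for 8.46% of 520 miRNAs, 5.96% higher and 2.5% lower in CM mice.

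**Figure D2:**
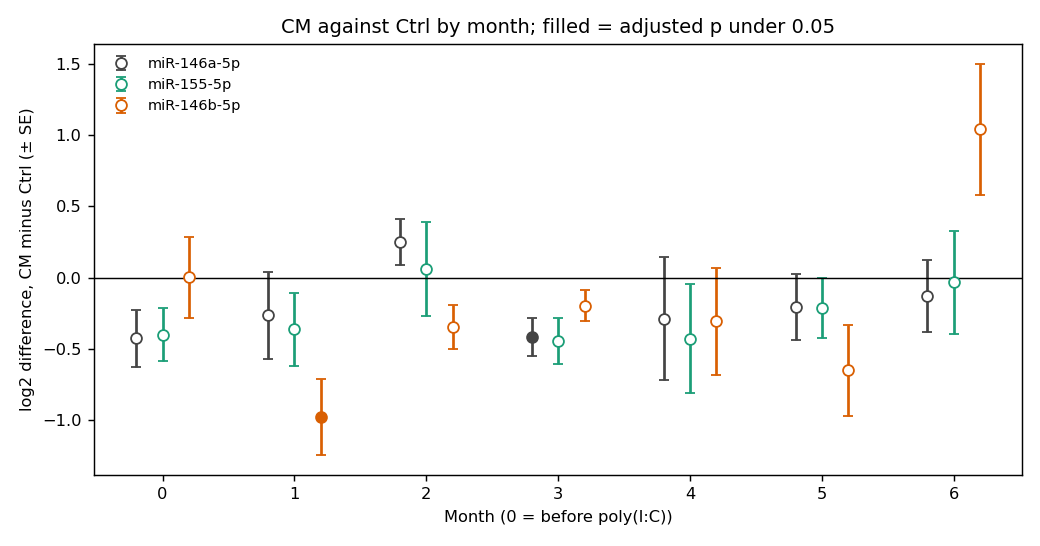
Log2 difference between CM and Ctrl mice (CM minus Ctrl, ± SE) for miR-146a-5p, miR-155-5p and miR-146b-5p at months 0 to 6, from edgeR. Filled points passed the BH threshold of 0.05, which holds for miR-146b-5p at month 1 (-0.98) and miR-146a-5p at month 3 (-0.42). The month 6 point of miR-146b-5p (1.04) rests on mouse 3341.

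At month 3, miR-146a-5p was lower in CM mice. It was at 31234 to 49594 CPM (median 36491) in 7 CM and 46092 to 68197 CPM (median 52635) in 7 Ctrl mice, with 6 CM libraries below the lowest Ctrl library. The log2 difference was -0.42 ± 0.13 (edgeR, adjusted p = 0.0332), where 7.91% of 455 miRNAs were called lower and 22.6% in either direction. This call was not stable. It was made in 5 of 14 fits that left out 1 mouse, with -0.48 to -0.35, and the fit across all training libraries with the G number in the titles as a term gave -0.16 (adjusted p = 0.773). With sex as a covariate the call was not made either. The adjusted p ranged from 0.00759 to 0.773 over 7 alternatives.

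miR-155-5p at month 3 ran alongside. It was at 2303 to 4783 CPM (median 2935) in CM and 3471 to 5780 CPM (median 4256) in Ctrl mice, and again 6 CM libraries lay below the lowest Ctrl library. The log2 difference of -0.44 ± 0.16 did not pass in edgeR (adjusted p = 0.0602). DESeq2 called it (-0.47, adjusted p = 0.0343), as did limma on the deposited values (-0.55, adjusted p = 0.0189), whereas the fit with the G number gave -0.12 (adjusted p = 0.848). The highest CM library (4783 CPM) was that of mouse 3334, without which edgeR called the difference (-0.59, adjusted p = 0.00318). miR-146b-5p differed by -0.20 ± 0.11 (adjusted p = 0.210), or -0.38 with limma on the deposited values (adjusted p = 0.0366). At this month 6 of 7 erythroid names were called higher, 1 of the 2 lymphocyte names (miR-150-5p) and 1 of the 2 leukocyte names lower and 1 of the 2 myeloid names (miR-223-3p) higher in CM mice. Their part in the member values was not tested.

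At months 2, 4, 5 and 6 no member was called in edgeR. The background there was 13.7% of the miRNAs tested at month 2 (7.9% higher and 5.82% lower), 0.837% at month 4 (0.628% higher and 0.209% lower) and 0% at months 5 and 6. DESeq2 called no member at these months either, but gave no adjusted p for miR-146b-5p at month 6. An unadjusted p under 0.05 was found for 1 member at month 2 and 1 at month 6, both miR-146b-5p, and for 0 members at months 4 and 5. At month 2 it was at 1792 to 2751 CPM (median 2189) in 6 CM and 1955 to 3569 CPM (median 2960) in 7 Ctrl mice, a log2 difference of -0.35 ± 0.15 (adjusted p = 0.143). At month 5 the difference was -0.65 ± 0.32 (adjusted p = 0.261), with 5 CM mice at 1386, 1727, 1774, 1804 and 2731 CPM and 7 Ctrl mice at 1529 to 6539 CPM. It was -0.38 without Ctrl mouse 3342 and -0.81 without CM mouse 3370.

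miR-146b-5p at month 6 went the other way through a single mouse. CM mouse 3341, at its last sampling, had 7448 CPM, the highest value of all training libraries, whereas the other 4 CM mice had 1149 to 1718 CPM and the 7 Ctrl mice 1012 to 1526 CPM. The log2 difference of 1.04 ± 0.46 (edgeR, adjusted p = 0.625) became 0.00 without this mouse. The fit with the G number across all libraries called it (1.00, adjusted p = 0.0410). The same library held 5011 CPM of miR-155-5p and 35689 CPM of miR-146a-5p, the highest CM values at month 6 for both strands. Erythroid names were not called at months 4 to 6.

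Taking each mouse once, as its mean of log2(CPM + 1) over months 1 to 6, no member of the 5 tested was called, against 33.9% of 608 miRNAs (limma-trend; no member had an unadjusted p under 0.05). The differences were -0.32 ± 0.16 for miR-146b-5p (adjusted p = 0.126), -0.23 ± 0.13 for miR-155-5p (adjusted p = 0.182) and -0.22 ± 0.15 for miR-146a-5p (adjusted p = 0.276). The deposited values gave a like difference for miR-146b-5p, which passed there (-0.30, adjusted p = 0.0366). The difference between arms in slope over months 0 to 6 passed the test for no member and for none of the 608 miRNAs (limma-trend; 51 at an unadjusted p under 0.05, among them miR-146b-3p at 0.13 ± 0.04 log2 per month).

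The change around poly(I:C) itself was read from month 1 against month 0 within each arm. No member was called in either arm by edgeR or DESeq2 (unadjusted p under 0.05 for 0 members in Ctrl and 1 in CM mice), where 0.63% of 476 miRNAs were called in Ctrl and 11.8% in CM mice (6.22% higher and 5.58% lower). In Ctrl mice the 7 within-mouse changes of miR-155-5p had a median of -0.26 log2 (-0.83 to 0.82), and 5 of 7 mice were lower at month 1. Those of miR-146a-5p had a median of 0.03 (-0.67 to 1.03), with 4 of 7 mice higher. Those of miR-146b-5p had a median of 0.45 (-0.61 to 2.01), with 4 of 7 mice higher. In edgeR these changes were -0.20 ± 0.21, -0.01 ± 0.22 and 0.31 ± 0.27, with adjusted p of 0.575 or more. Levels in the days after an injection was not sampled.

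In CM mice miR-146b-5p was lower at month 1 in 6 of 7 mice. The within-mouse changes had a median of -0.56 log2 (-1.35 to 0.43), and edgeR gave -0.59 ± 0.27 (unadjusted p = 0.0475, adjusted p = 0.156). The edgeR value was -0.36 without mouse 3334 and -0.77 without mouse 3370. miR-146a-5p changed by 0.22 ± 0.29 and miR-155-5p by -0.09 ± 0.23, both far from the threshold (adjusted p of 0.674 and 0.838). With mouse as a block, which follows from the repeated bleeding of the same animals, no member was called in either arm.

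The long course in Ctrl mice was clearer than the early one. Over months 1 to 10 all 7 Ctrl mice had negative slopes for miR-146a-5p, miR-146a-3p, miR-155-5p and miR-146b-5p. The mean slope was -0.16 ± 0.02 log2 per month (SE, n = 7 mice; limma-trend, adjusted p = 9.25e-05) for miR-146a-5p, with single mice between -0.22 and -0.10. It was -0.16 ± 0.02 for miR-146b-5p (adjusted p = 0.000123; -0.26 to -0.10) and -0.10 ± 0.02 for miR-155-5p (adjusted p = 0.00411; -0.18 to -0.01). miR-146a-3p fell by 0.25 per month ± 0.02 (adjusted p = 3.10e-05), and miR-146b-3p had a slope of -0.05 ± 0.02, which did not pass (adjusted p = 0.0701).

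As levels, miR-146a-5p had a median of 52635 CPM at month 3 (46092 to 68197), 27618 CPM at month 6 (23801 to 47840) and 15903 CPM at month 8 (11104 to 32226) in 7 Ctrl mice, and 23105 CPM at month 10 (19958 to 37185) in 6. The ranges at months 3 and 8, the months of the highest and the lowest median, did not overlap. The range at month 0 (29927 to 52729) did overlap that at month 10. miR-146b-5p had medians of 2156, 1273, 1036 and 1189 CPM at these months, and its ranges at month 3 (1927 to 2444) and at month 10 (993 to 1318) did not overlap either. miR-155-5p had medians of 4256, 2625, 1582 and 2326 CPM. Its range at month 8 (1028 to 3251) lay below that at month 3 (3471 to 5780). The range of miR-155-5p at month 10 (2066 to 3889) reached into that at month 3. How many of all miRNAs had ranges apart between these months was not counted.

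Many other miRNAs had slopes in these mice too. Of 608 miRNAs, 50.7% had a called slope, 23.4% a rise and 27.3% a fall, so 4 called falls among 5 tested members is a share above that of all miRNAs, with no test of the list. All 7 erythroid names rose (median slope 0.26 log2 per month), and all 6 lymphocyte, myeloid and leukocyte names fell, with median slopes of -0.22, -0.08 and -0.15. The erythroid sum had a median of 36921 CPM at month 1 and 182591 CPM at month 8, and the lymphocyte sum 57673 and 21975 CPM. With erythroid names left out of totals and scaling, the slopes were -0.15 for miR-146a-5p and miR-146b-5p and -0.09 for miR-155-5p, all still called. The part of cell make-up in the fall was not tested.

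**Figure D3:**
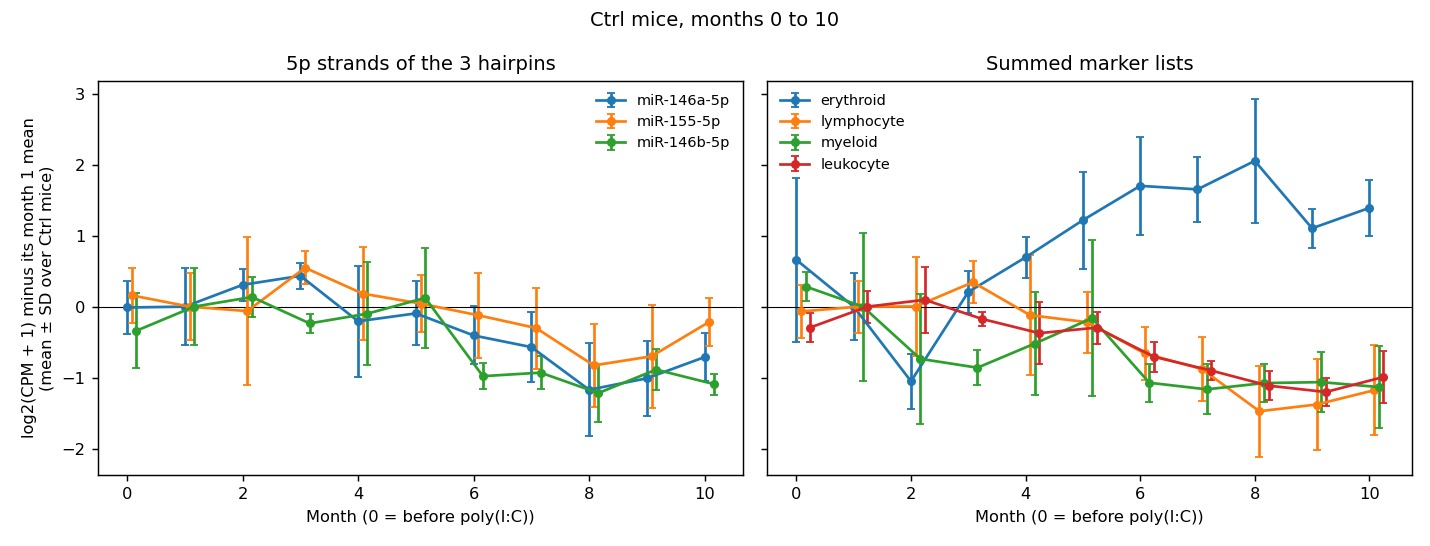
Mean ± SD over Ctrl mice (7 per month, 6 at month 10) of log2(CPM + 1), minus its own mean at month 1, for the 5p strands (left) and for summed marker lists (right), against month. Means of all 3 strands were below the month 1 mean at months 6 to 10, as were the lymphocyte, myeloid and leukocyte sums, while the erythroid sum was above it.

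Month 6 against month 0 in Ctrl mice gave the same direction with fewer calls. miR-146b-5p was lower, at 1012 to 1526 CPM (median 1273) against 1219 to 2955 CPM (median 2163), and 6 of 7 mice fell. The log2 difference of -0.68 ± 0.21 passed (edgeR, adjusted p = 0.0342), where 9.92% of 474 miRNAs were called lower and 20.9% in either direction. With mouse as a block it was -0.63 and did not pass (adjusted p = 0.108), and without mice 3334 and 3335, whose running numbers in the titles change places from month 6, it was -0.59 (adjusted p = 0.0870). miR-146a-3p moved the other way across the threshold, at -1.14 ± 0.44 (adjusted p = 0.0804) and at -1.40 with the block (adjusted p = 0.0339), from a median of 28 counts at month 0. miR-146a-5p (-0.34 ± 0.23) and miR-155-5p (-0.16 ± 0.28) did not pass. In the same comparison both myeloid names were called lower (median -0.90), 1 of the 2 lymphocyte names lower (median of both -0.78) and 2 of 7 erythroid names higher. Their part in the member values was not tested.

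Toward the end of follow-up, the last library of each of the 7 CM mice (month 4 to month 10) was set against its month 0. No member was called, whereas 38.3% of 446 miRNAs were, 22.9% higher and 15.5% lower (no member had an unadjusted p under 0.05, and DESeq2 called 0). miR-155-5p was higher at the last sampling in 5 of 7 mice, at 1498 to 5392 CPM (median 2988) against 1572 to 3349 CPM (median 2729), a log2 difference of 0.46 ± 0.28 (adjusted p = 0.202). miR-146a-5p was at 11039 to 52124 CPM (median 21349) against 17159 to 45055 CPM (median 30512), a difference of -0.17 ± 0.29 (adjusted p = 0.655). The mice diverged in miR-146b-5p: mouse 3341 went from 1496 to 7448 CPM, mouse 3357 from 1882 to 3537 CPM and mouse 3334 from 4192 to 1428 CPM. Its difference of 0.50 ± 0.42 (adjusted p = 0.357) was -0.08 without mouse 3341, and -0.22 with limma on the deposited values. In this comparison, both lymphocyte names and 1 of the 2 myeloid names were called lower, and among 7 erythroid names 3 were called higher and 1 lower.

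The balance of the 2 strands of a hairpin was compared as log2((5p CPM + 1)/(3p CPM + 1)), averaged per mouse over months 1 to 6. The added 1 is close to the mean of miR-146b-3p (1.27 CPM). The values thus lie below the plain ratio of the strands and understate changes of the 3p strand. For miR-146b it was 9.40 to 9.86 (median 9.57) in 7 CM and 9.78 to 10.2 (median 9.96) in 7 Ctrl mice. The difference was -0.42 ± 0.09 (limma without a trend, adjusted p = 0.00179), kept in 4 of 4 alternatives and in 14 of 14 fits without 1 mouse. For miR-146a it was -0.28 ± 0.12 and did not pass (adjusted p = 0.0803), but without mice 3334 and 3335 it did (-0.38, adjusted p = 0.0242). Of 161 hairpins, 38.5% were called, 19.9% higher and 18.6% lower. The ratio of miR-146b joins a difference of -0.32 in the 5p strand with one of 0.10 in the 3p strand, neither of which was called alone, and its 3p strand rests on a median of 5 counts per library.

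How many reads were given to miR-146b-5p depended on the table. The raw counts held 1123957 reads of it against 448959 reads recovered from the deposited training values, a ratio of 2.50. For miR-146a-5p this ratio was 1.25 and for miR-155-5p 1.21, with SDs over libraries of 0.03 and 0.04. For miR-146b-5p it ran from 1.82 to 4.74 (SD 0.45), so the surplus was not a constant factor. The largest ratio was that of CM mouse 3341 at month 6, the library with the highest level of miR-146b-5p, where 21654 raw counts stood against 4570 recovered reads. In the deposited values this library was at 1957 CPM, and the miR-146b-5p mean was 832 CPM in place of 1923. Among the 3p strands, at few counts, the ratio was 2.74 for miR-146a-3p, 2.61 for miR-155-3p and 1.18 for miR-146b-3p. The cause of the surplus was not tested, and levels of miR-146b-5p are uncertain to the extent of its ratio. Its lower value in CM mice at month 1 was found with both tables, at -0.98 and -0.76.

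**Figure D4:**
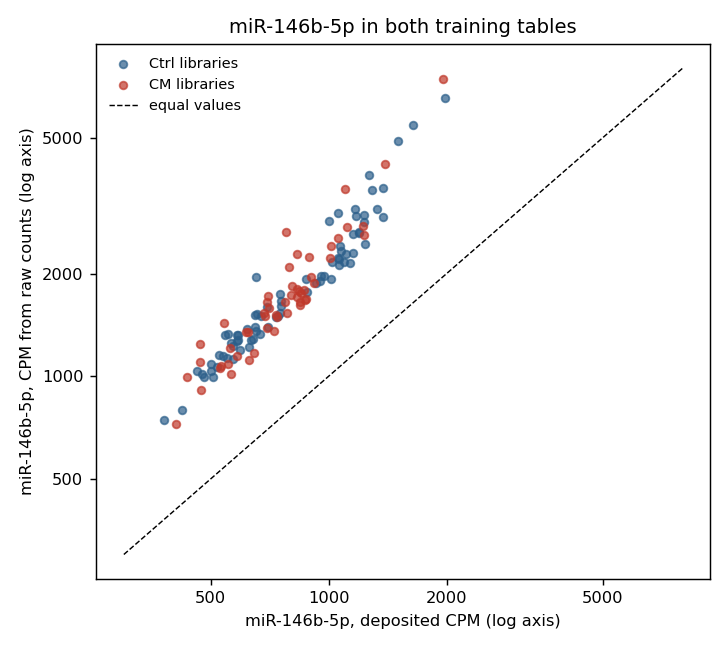
miR-146b-5p in each training library, as CPM from the raw counts (y axis) against the deposited CPM (x axis), both on log axes, with CM libraries in red and Ctrl libraries in blue. All points lie above the dashed line of equal values, and CM mouse 3341 at month 6 stands at 7448 and 1957 CPM.

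In the validation cohort the members could be measured at point 5 only. There, 12 libraries (6 CM and 6 Ctrl) held 1645456 to 5445215 reads, recovered from the deposited values. miR-146a-5p was at 31542 to 77385 RPM (reads scaled to a total of 1000000; median 57416) in CM and 34154 to 67512 (median 48591) in Ctrl mice, and it ranked 5 by mean. miR-155-5p was at 1308 to 3420 RPM (median 2785) in CM and 1550 to 3032 (median 2384) in Ctrl mice. Among CM mice, 2684 and 2718 had 1308 and 1415, and the other 4 had 2655 or more. miR-146b-5p was at 667 to 1242 RPM (median 1046) in CM and 840 to 1447 (median 1196) in Ctrl mice. The order of the strands was that of the training cohort, and the arms overlapped for all 3.

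None of the 6 members, and 0% of 930 miRNAs, was called at point 5 (limma-trend on the deposited values; 54 miRNAs and no member at an unadjusted p under 0.05, and edgeR on recovered reads called 0 of 4 members). The log2 differences were 0.23 ± 0.30 for miR-146a-5p, 0.10 ± 0.37 for miR-155-5p and -0.13 ± 0.29 for miR-146b-5p, with adjusted p of 0.955 or more. These differences and SEs carry the deposited scaling, which relates to RPM by a factor that differs between libraries. For miR-155-5p, CM mouse 2718 had 8546 deposited CPM and 1415 RPM, and CM mouse 2700 had 52020 and 3200. A p that misses the threshold does not show that the arms were alike. Which month point 5 stands for is not given by the labels.

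**Figure D5:**
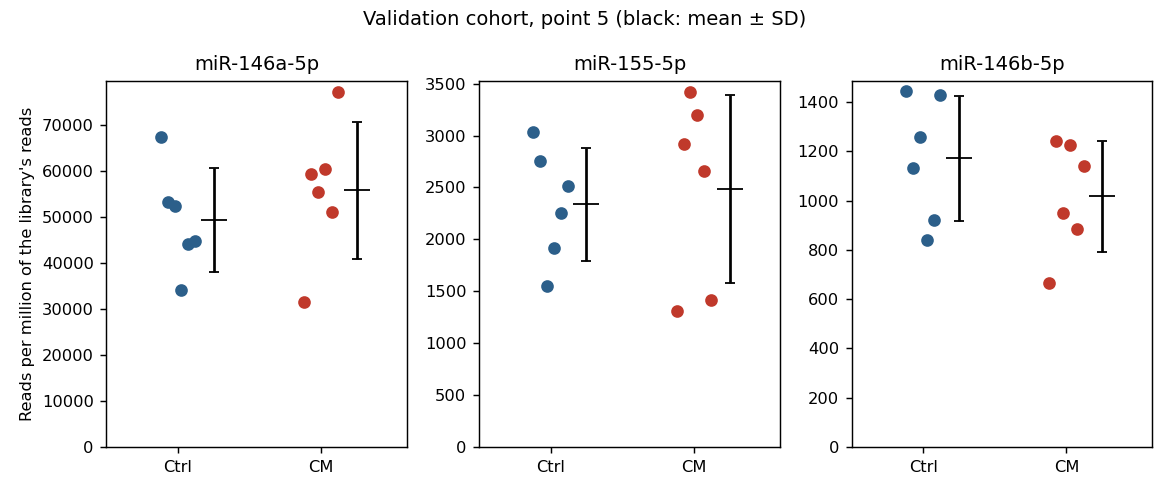
Levels (RPM, from each library’s recovered reads) of miR-146a-5p, miR-155-5p and miR-146b-5p in the validation cohort at point 5. Each dot is a mouse (6 Ctrl in blue, 6 CM in red), black marks are means ± SD, and the arms overlap in all 3 panels.

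At the other points the same strands nearly disappeared from the files. The 90 libraries outside point 5 held 1744 to 76906 reads, and the 6 members together had 0 to 12 of them (median 2). miR-146a-5p was above 0 in 55 of 90 libraries with at most 6 reads, miR-146b-5p in 43 with at most 6, and miR-155-5p in 10 with at most 3. miR-155-3p was at 0 in 90 of 90 libraries, where 3 of all their reads would correspond to 1.40 RPM (counting error only). The median of miR-146a-5p was 52874 RPM at point 5 and 34.5 RPM elsewhere. miR-5099 took 36.7% to 99.1% of the reads of these 90 libraries (median 95.6%), against 0.0168% or less at point 5. The leukocyte miRNA miR-142a-3p had a median of 1433 RPM in them, against 26767 at point 5. No comparison of the members between arms was read from these points.

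A list of 18 other miRNAs known from innate immune signalling was read beside the members. At month 1, 2 of 16 tested were called lower in CM mice, let-7e-5p (-1.07 ± 0.17), which targets Tlr4, and miR-147-3p (-1.84 ± 0.50), a Toll-like receptor-induced miRNA of macrophages, and none higher, where 12.3% of all miRNAs were called lower. The list had a median of -0.17, against -0.10 over all miRNAs. let-7e-5p also passed the interaction of arm and month 1 (-0.88 ± 0.26, adjusted p = 0.0328), which no member did. At month 2, 2 of 16 were called lower (miR-147-3p and miR-210-3p), against 5.82% of all miRNAs. At month 3, 1 of 16 was called higher, against 14.7% of all (miR-223-3p, at 0.74 ± 0.18, the granulocytic miRNA that is also a myeloid marker here). Over mouse means of months 1 to 6, 3 of 17 were called higher and 3 lower, against 17.3% and 16.6% of all miRNAs. In the last CM libraries 3 of 15 were called higher, with miR-132-3p at 3.32 ± 0.64 and miR-212-3p at 3.51 ± 0.84, strands of a single CREB-responsive cluster, and 2 lower, against 22.9% and 15.5% of all. Over months 1 to 10 in Ctrl mice, 6 of 17 rose and 3 fell (median slope 0.03), against 23.4% and 27.3% of all, beside 4 of 5 falling members.

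Across all training libraries, miR-155-5p and miR-146a-5p ran together. Among 331 miRNAs with a mean of 10 CPM or more, the miRNA most like miR-155-5p was miR-146a-5p (Spearman's rho 0.83, Pearson's r 0.80 on log2(CPM + 1)), then miR-190b-5p (rho 0.83) and miR-3535 (0.82). Those most like miR-146a-5p were miR-3535 (0.86), the lymphocyte miRNA miR-150-5p (0.83) and miR-155-5p (0.83). miR-146b-5p, with the same seed as miR-146a-5p, was most like miR-27a-5p (0.75), miR-501-3p (0.75) and miR-10a-5p (0.73). The lymphocyte miRNA miR-342-3p (0.68) stood at rank 6 of its list, miR-146a-5p (0.64) at rank 8 and miR-155-5p (0.59) at rank 21. The erythroid miRNA miR-451a was opposite to all 3 strands, at -0.49 for miR-155-5p, -0.54 for miR-146a-5p and -0.66 for miR-146b-5p. The myeloid miRNA miR-223-3p was at 0.05 for miR-155-5p, 0.24 for miR-146a-5p and 0.45 for miR-146b-5p. These values describe libraries that share mice and months, and in which each count is relative to the library's other counts.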

How the data were processed

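Small RNA of mouse PBMC was sequenced, and files of 129 training and 102 validation libraries were used. The authors deposited raw whole-number counts of the training libraries, made with mirTOP at settings not given in the sources used here, and TMM-scaled CPM of both cohorts, which is treated as a signal because columns do not sum to 1000000. For the CPM, the authors used cutadapt to trim adapters, Bowtie to align and edgeR to scale. The methods name the mm9 build, and the submitters' processing notes name GRCm38. The files carry no coordinates, so those printed come from RefSeq, with the mm9 annotation named where used. In the deposited CPM, 100% of values above 0 were whole multiples of the smallest one (within 0.01), and reads were recovered by that division in the training columns and in 100 of 102 validation columns, with too few low values for a claim in the other 2.

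Groups, mice and months were taken from the labels. Counts were tested with edgeR 4.0.16 (R 4.3.3; quasi-likelihood, TMM, filterByExpr), mouse values (mean CPM of 1 or more) and validation CPM with limma-trend 3.58.1 on log2(CPM + 1), a scale that understates changes of low miRNAs. Strand ratios per mouse were tested with limma without the trend. BH adjustment covered all miRNAs tested, with a threshold of 0.05. Alternatives were DESeq2 1.42.0, no filter, a pseudocount of 0.1, deposited values, the G number, sex, omitted mice, erythroid names left out and mouse as a replicate block. In the validation CPM, a miRNA was kept if the libraries reaching 1 CPM numbered no fewer than the mice of the smaller arm. The block follows from the mouse numbers in the labels, which mark the same animal. Deviations of the same mouse at months 0 and 1 correlated between -0.27 and 0.14 over 331 miRNAs. Each library of a comparison between arms is a different mouse. Named miRNAs were the 6 members, the 3 miRNAs most like each 5p strand and up to 3 called names of the 18-name list. Members, lists and rules were chosen with earlier results of these data known. The tests were checked on simulated data.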

Additional observations from a re-analysis of the deposited data

Results flagged for a closer look

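Of 60 groups of 4 to 10 libraries of miR-155-5p, miR-146a-5p and miR-146b-5p, 4 held a library far from the others by Dixon's criterion, against about 1 in 20 groups, or 3, by chance. miR-155-5p in Ctrl mouse 3349 at month 2 was at 591.2 CPM, against 3191 to 5511 CPM in the other 6 Ctrl mice. This library had the fewest counts of all (1792809), its miR-155-5p rested on 1485 counts, and its miR-146a-5p (42657 CPM) was 72.1 times its miR-155-5p, the highest such ratio of all training libraries. Its miR-142a sum (194350 CPM) was the highest and its miR-223 sum (1509 CPM) the lowest of all training libraries. It was kept in the month 2 comparison, where no fit without it was made, and in the mouse means and Ctrl slopes. miR-146a-5p in Ctrl mouse 3342 at month 2 was at 69720 CPM, against 42657 to 49979 CPM in the others. miR-146a-5p in CM mouse 3334 at month 6 was at 18300 CPM, against 29477 to 35689 CPM in the other 4 CM mice, and its running number in the title changes at that month. miR-146b-5p in CM mouse 3341 at month 6 was at 7448 CPM, against 1149 to 1718 CPM. Causes were not tested.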

How the results depend on the processing

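Of 440 member values recomputed under alternatives that kept the mice or left out mice 3334 and 3335 together, 402 kept direction and side of the threshold, 7 lost and 12 gained a call, and 19 changed sign. The cause of a changed call was not tested. Called members at month 3 (1) became 2 with DESeq2, 3 with limma on deposited CPM and 0 with no filter, the G number or sex, and 0 to 2 without single mice. At month 6 (0) the G number gave 1. For Ctrl month 6 against month 0 (1), DESeq2 and deposited CPM gave 2 and no filter 0. Mouse means (0) gave 1 with deposited CPM. The strand ratio (1) gave 2 without mice 3334 and 3335, 2 with no filter (miR-155 is then tested and called), and 1 to 2 without single mice.

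Values that changed sign had a smallest reported adjusted p of 0.210. For miR-146a-3p they were, from deposited CPM, -0.0936 at month 3, 0.0174 at month 5 and 0.0119 for Ctrl month 1 against 0. From recovered reads they were -0.0238 at month 1, -0.0353 at month 3 and 0.0641 for Ctrl month 1 against 0, the last 0.00531 with DESeq2 and 0.0313 with no filter. For miR-155-5p the G number gave -0.0783 at month 2, 0.0284 at month 6 and 0.0757 for CM month 1 against 0, and month 6 was 0.0299 with DESeq2 and 0.20 without mice 3334 and 3335. miR-146a-5p was 0.134 at month 6 without these mice, and for Ctrl month 1 against 0 it was 0.0366 with no filter and 0.102 with the G number. miR-146b-5p was 0.0417 at month 3 with the G number, and for the last CM library -0.22 with deposited CPM and -0.0397 with recovered reads.

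Without single mice the values ran from -0.0455 to 0.205 (miR-146a-3p, month 1), -0.178 to 0.028 (miR-146a-3p, month 5), -0.39 to 0.21 (miR-155-5p, month 6), -0.269 to 0.0246 (miR-146a-5p, month 6), -0.167 to 0.10 (miR-146a-5p), -0.0852 to 0.0554 (miR-146a-3p) and -0.0181 to 0.483 (miR-146b-5p) for Ctrl month 1 against 0, -0.243 to 0.0161 (miR-155-5p, CM month 1 against 0), -0.332 to 0.0396 (miR-146a-5p), -0.777 to 0.0339 (miR-146a-3p) and -0.0808 to 0.853 (miR-146b-5p) for the last CM library, and -0.0921 to 0.429 (miR-155-5p) and -0.291 to 0.0152 (miR-146b-5p) at validation point 5. With mouse as a replicate block, calls changed only for Ctrl month 6 against month 0, where miR-146b-5p gave -0.63 and miR-146a-3p -1.40.

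The share of all miRNAs called ranged, over all settings, from 6.04% to 33.1% at month 1, 5.08% to 31.6% at month 3 and 15.2% to 55.1% for the Ctrl slope. Depth limits the 3p strands, at medians of 3 to 20 counts. Validation points other than 5 held 0 to 12 reads of the members per library.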
